A study of Homo sapiens with 6 samples.

Results

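The products of GATA4, GATA6, HNF4A, HNF4G, FOXA1, FOXA2, PDX1 and SOX9 are transcription factors of the foregut and pancreas, and most of them are used to separate the classical from the basal-like subtype of pancreatic cancer. These 8 genes were chosen by name among the 58735 genes of the table, and all 8 were found once. RNA was sequenced from AsPC-1, an established human pancreatic cancer cell line, in 6 libraries. The Vector group (3 libraries) consisted of cells with the genotype label WT that had received an empty virus. The OE-MMP28 group (3 libraries) consisted of the same line after a lentivirus with the MMP28 cDNA, and per the study's methods the vectors carried GFP and a puromycin resistance gene and the lines were stable. MMP28 is a secreted matrix metalloproteinase. The study's methods give triplicate samples per group for the sequencing and independent repeats for in vitro experiments in general, without tying these libraries to separate cultures or infections, so p-values measure the spread between these samples only, which may be technical.

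Library totals lay between 13633249 and 16691458 counts, so that 3 counts, the limit that a count of 0 allows, corresponded to between 0.180 and 0.220 CPM (counts relative to library size). This limit covers counting error only. MMP28 itself stood at 5.17, 9.11 and 8.43 FPKM (fragments relative to gene length and library size) in the Vector libraries and at 13.1, 13.9 and 15.1 FPKM in the OE-MMP28 libraries. Its log2 fold change was 0.90 ± 0.193 (SE, adjusted p = 0.00226), in the direction that the labels give. Among markers of other cell types, the acinar genes PRSS1, CPA1 and AMY2A had no count in any library. The same held for the endocrine genes INS, GCG, PPY and IAPP and for CD3E and MS4A1. Other genes of these lists were detected, among them CEL (70 counts in Vector and 52 in OE-MMP28), SYP (60 and 30) and CD14 (80 and 58), none of them called. Summed FPKM of the 8 acinar markers was 0.628 to 1.28 in Vector and 0.49 to 0.714 in OE-MMP28. The 8 endocrine markers summed to 0.255 to 0.876 and 0.156 to 0.242. The fibroblast marker LUM and the macrophage marker LYZ were present in both groups (37.3 and 176 FPKM in Vector). Every other fibroblast marker had few counts, from 0 (THY1) to 17 (COL1A1) in all Vector libraries together. In OE-MMP28 they had from 0 (COL1A2 and FAP) to 27 (COL1A1). Summed FPKM of the 8 fibroblast markers was 33.9 to 40.9 in Vector and 39.3 to 57.0 in OE-MMP28, and that of the 8 immune markers 164 to 186 and 106 to 146, with PTPRC at 2 and 1 counts in all. Summed ductal markers, led by KRT8, KRT18 and KRT19, were 2593 to 3540 and 3580 to 4375 FPKM. On the same list KRT7 (1.14 FPKM in Vector and 1.81 in OE-MMP28) and CD24 (10 and 11 counts in all) were low. LYZ, which is also on the list of classical markers below, was the only immune or fibroblast marker called (log2 fold change -0.45, adjusted p = 0.0376). The LYZ call was lost in 6 of 18 other settings. Mitochondrial genes took 11.9% to 14.8% of counts in Vector and 8.8% to 11.9% in OE-MMP28. The part of these marker and mitochondrial levels in the results was not tested, except that FOXA1, described below, had a log2 fold change of -1.78 (adjusted p = 3.39e-05) when mitochondrial genes were left out.

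As background, FOXA1 and FOXA2 are pioneer factors of the forkhead family, which can bind DNA packed in nucleosomes and open it for other factors. GATA4 and GATA6 are zinc finger factors of endoderm, and GATA6 is the best known marker of classical pancreatic tumours. HNF4A and HNF4G are nuclear receptors that drive digestive and hepatic genes. PDX1 is the homeodomain factor that founds the pancreas, and SOX9 keeps the identity of duct and progenitor cells. Loss of GATA6 or HNF4A is associated with the basal-like state.

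FOXA1 was lower in OE-MMP28 cells, and no other of the 7 factors that could be tested passed the test. Its gene (ENSG00000129514) lies at chr14:37589984-37596059 on the minus strand of GRCh38, and reads in the opposite direction from TTC6, which begins beside it on the plus strand. The stretch between them is shown because both genes, described further on, were lower in OE-MMP28 libraries. RefSeq promoter windows, from 250 bases before to 50 bases after a start site on GRCh38.p14, were found for 3 of the 8 genes (FOXA1, GATA6 and HNF4A). The starts of FOXA1 (37595249) and TTC6 (37595629) lie 380 bases apart, and their windows share 121 bases at chr14:37595379-37595499. In GENCODE 29 these bases lie in an intron of a noncoding FOXA1 transcript (chr14:37595024-37596059) and upstream of the coding FOXA1 transcript (chr14:37589984-37595034). On the plus strand of GRCh38.p14, 5′ to 3′, they read as follows, with a forkhead-type TGTTTGC match in capitals.
FOXA1 and TTC6, shared bases: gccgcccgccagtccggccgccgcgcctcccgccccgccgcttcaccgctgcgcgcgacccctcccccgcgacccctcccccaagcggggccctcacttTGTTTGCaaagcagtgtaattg

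The stretch is 74.4% G or C and holds 16 CpG dinucleotides. The motifs searched on both strands in the whole windows were the forkhead words TGTTTGC and TGTTTAC, the GATA word AGATAA and the HNF4 word CAAAGTCCA. TGTTTGC occurred in 3.89% of 35116 windows, TGTTTAC in 3.42%, AGATAA in 10.3% and CAAAGTCCA in 0.384%. In the FOXA1 and TTC6 windows the match in capitals was the same site, at bases 100 to 106 of the shared stretch. HNF4A held 1 AGATAA, at bases 225 to 230 of the first of its 2 windows, and GATA6 held none of the 4 words. These are matches of letters only, and binding was not measured.

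FPKM, a level per length, allows the factors to be compared with each other. HNF4A (21.7 ± 2.12 FPKM, SD, n = 3) and SOX9 (18.6 ± 2.74 FPKM) were highest, and the ranges of this pair overlapped. GATA6 (9.21 ± 0.312 FPKM) and HNF4G (6.73 ± 1.23 FPKM) followed. FOXA1 (3.90 ± 1.08 FPKM) was 5th, overlapping with PDX1 (2.89 ± 0.561 FPKM). GATA4 (1.84 ± 0.260 FPKM) and FOXA2 (0.0886 ± 0.0401 FPKM) came last, and all other neighbours in this order had separate ranges. Averaged over all 6 libraries, HNF4A lay above 85.2% and SOX9 above 84.3% of 12390 tested protein-coding genes, GATA4 above 25.6% and FOXA2 above 1.58%.

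**Figure D1:**
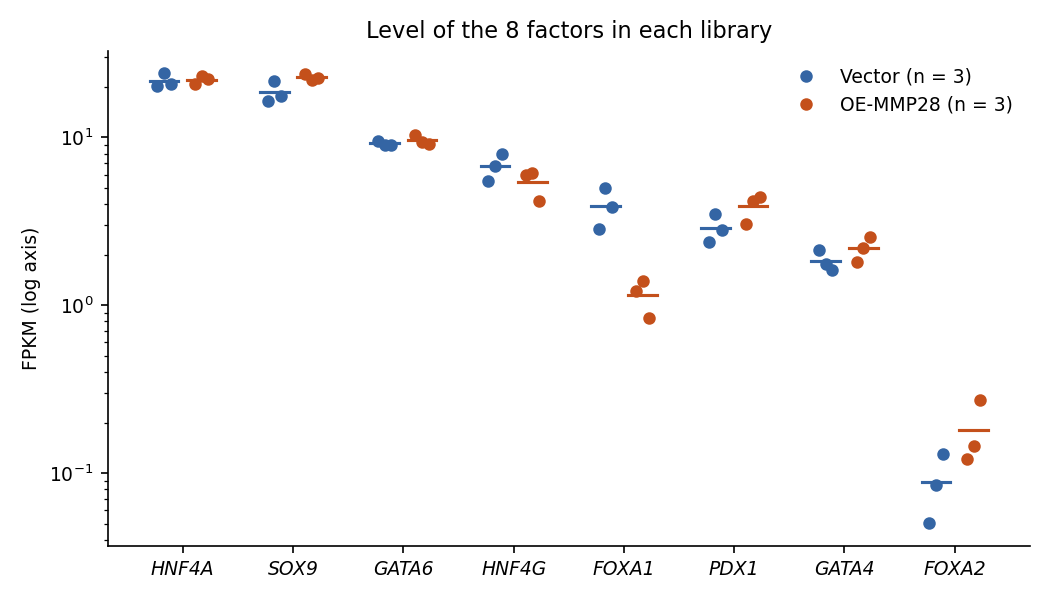
Level of each of the 8 factors in every library, in FPKM on a log axis, with Vector in blue and OE-MMP28 in orange. Points are libraries and lines are group means. FOXA1 falls from between 2.84 and 5.00 FPKM to between 0.836 and 1.39 FPKM, while the other 7 pairs of groups overlap or, for SOX9, lie close together.

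In OE-MMP28 the order was SOX9 (22.9 ± 0.906 FPKM), HNF4A (22.1 ± 1.18), GATA6 (9.63 ± 0.652), HNF4G (5.41 ± 1.09), PDX1 (3.89 ± 0.751), GATA4 (2.18 ± 0.367), FOXA1 (1.15 ± 0.286) and FOXA2 (0.180 ± 0.0820). SOX9 overlapped with HNF4A and HNF4G with PDX1, and the other neighbours did not overlap. FOXA1 thus moved from rank 5 to rank 7, below PDX1 and GATA4. Its range overlapped with that of PDX1 in Vector and with neither of them in OE-MMP28.

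A test of OE-MMP28 against Vector was possible for 7 of the 8 factors, since FOXA2 did not pass the filter on low counts. At an adjusted p under 0.05 (edgeR's quasi-likelihood test), 0 of the 7 were higher and 1 was lower. Over all 15319 genes tested, 23.4% were called, 11.7% higher and 11.6% lower, so the share of factors called was not above that of genes in general. Their median log2 fold change was 0.07, beside 0.01 over all genes. Counted instead at an absolute log2 fold change over 1, FOXA1 was again the 1 factor called, beside 8.50% of all genes with an unadjusted p under 0.05 and 7.38% with an adjusted p under 0.05. Separate FPKM ranges in Vector and OE-MMP28 were seen for 2 of the 8 (FOXA1 and SOX9) and for 38.1% of genes tested.

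Among the forkhead pioneers, FOXA1 gave 173, 269 and 226 counts in the Vector libraries and 77, 88 and 56 counts in the OE-MMP28 libraries. In FPKM these were 2.84, 5.00 and 3.85 against 1.22, 1.39 and 0.836. Every OE-MMP28 library lay below every Vector library. The fall was 3.36-fold, with a log2 fold change of -1.75 ± 0.247 (SE, 95% interval -2.26 to -1.23, adjusted p = 4.39e-05). Only 1.27% of genes tested were called with a value as low or lower. An exact two-sided permutation test over the 6 libraries gave p = 0.1, the smallest that 3 against 3 allows. In RNA from whole cultures, fewer cells with FOXA1 and less FOXA1 RNA per cell cannot be told apart.

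FOXA2 was close to the detection limit in both groups. It had 2, 3 and 5 counts in Vector and 5, 6 and 12 in OE-MMP28, which corresponded to 0.0503, 0.0853 and 0.130 FPKM and to 0.121, 0.145 and 0.274 FPKM. These groups overlapped, and without the filter on low counts the adjusted p was 0.523 with a log2 fold change of 1.01. The FOXA1 to FOXA2 ratio of FPKM was 56.5, 58.6 and 29.5 in Vector and 10.1, 9.59 and 3.05 in OE-MMP28. Its geometric mean was 46.1 and 6.65 (exact permutation p = 0.1), and it rests on these few FOXA2 counts.

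FOXA3, the remaining gene of the FOXA group and not among the 8, moved the other way. This hepatic and endodermal factor had 7, 8 and 4 counts in Vector and 31, 29 and 28 in OE-MMP28, or 0.201 ± 0.0734 and 0.829 ± 0.0677 FPKM (SD, n = 3). The 2 groups were well apart, and the log2 fold change came to 2.04 ± 0.439 (SE, adjusted p = 0.00227). The Vector counts were near the detection limit (0.457, 0.592 and 0.272 CPM). The FOXA3 call was lost in 1 of 18 other settings (limma on log2(FPKM + 0.1), adjusted p = 0.0559). FPKM summed over FOXA1, FOXA2 and FOXA3 was 3.10, 5.35 and 4.11 in Vector and 2.24, 2.37 and 1.87 in OE-MMP28, so the sum was still lower in each OE-MMP28 library (4.19 ± 1.13 and 2.16 ± 0.261, exact permutation p = 0.1). FOXA1 held 3.90 of the 4.19 FPKM in Vector on average. In OE-MMP28 it held 1.15 of 2.16 FPKM on average, and 0.836 of 1.87 FPKM in replicate 3.

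Neither GATA factor passed the test. GATA6 (ENSG00000141448, chr18:22169443-22202528, plus strand) stood at 9.57, 9.02 and 9.03 FPKM in Vector and 10.4, 9.37 and 9.15 FPKM in OE-MMP28. The groups overlapped, and the log2 fold change was 0.07 ± 0.154 (95% interval -0.25 to 0.40, adjusted p = 0.770). GATA4 (ENSG00000136574, chr8:11676959-11760002, plus strand) stood at 2.13, 1.77 and 1.63 FPKM and at 1.81, 2.20 and 2.54 FPKM. Here too the groups overlapped, with a log2 fold change of 0.26 ± 0.216 (95% interval -0.19 to 0.71, adjusted p = 0.424). The GATA6 to GATA4 ratio had a geometric mean of 5.02 in Vector and 4.45 in OE-MMP28 (exact permutation p = 0.5). Part of the GATA6 exon length is shared with antisense genes, 6.08% with GATA6-AS1 and 8.14% with AC091588.3, and whether counting used the strand was not stated. GATA6-AS1 had 58 counts over the Vector and 52 over the OE-MMP28 libraries, against 1583 and 1840 for GATA6.

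The HNF4 receptors were also not called. HNF4A (ENSG00000101076, chr20:44355700-44434596, plus strand) stood at 20.2, 24.1 and 20.8 FPKM in Vector and at 20.8, 23.2 and 22.3 FPKM in OE-MMP28, so that each OE-MMP28 library fell inside the Vector range. Its log2 fold change was 0.04 ± 0.145 (95% interval -0.26 to 0.34, adjusted p = 0.884). HNF4G (ENSG00000164749, chr8:75407914-75566843, plus strand) stood at 5.48, 6.77 and 7.93 FPKM and at 5.93, 6.14 and 4.16 FPKM. The lowest library was OE-MMP28 replicate 3 and the others intermixed, with a log2 fold change of -0.31 ± 0.186 (95% interval -0.70 to 0.08, adjusted p = 0.250). The HNF4A to HNF4G ratio was 3.25 in Vector and 4.14 in OE-MMP28 as a geometric mean (exact permutation p = 0.3).

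PDX1 and SOX9 had the highest log2 fold changes of the 7, and neither passed the test. SOX9 (ENSG00000125398, chr17:72121020-72126420, plus strand) stood at 16.5, 21.7 and 17.6 FPKM in Vector and at 23.9, 22.1 and 22.7 FPKM in OE-MMP28. The groups did not overlap, but Vector replicate 2 (21.7 FPKM) came close to OE-MMP28 replicate 2 (22.1 FPKM). The log2 fold change was 0.31 ± 0.152 (unadjusted p = 0.0525, adjusted p = 0.144). PDX1 (ENSG00000139515, chr13:27920020-27926231, plus strand) stood at 2.38, 3.49 and 2.79 FPKM and at 3.03, 4.19 and 4.44 FPKM, and only OE-MMP28 replicate 1 lay within the Vector range. Its log2 fold change was 0.44 ± 0.229 (95% interval -0.03 to 0.92, adjusted p = 0.170).

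**Figure D2:**
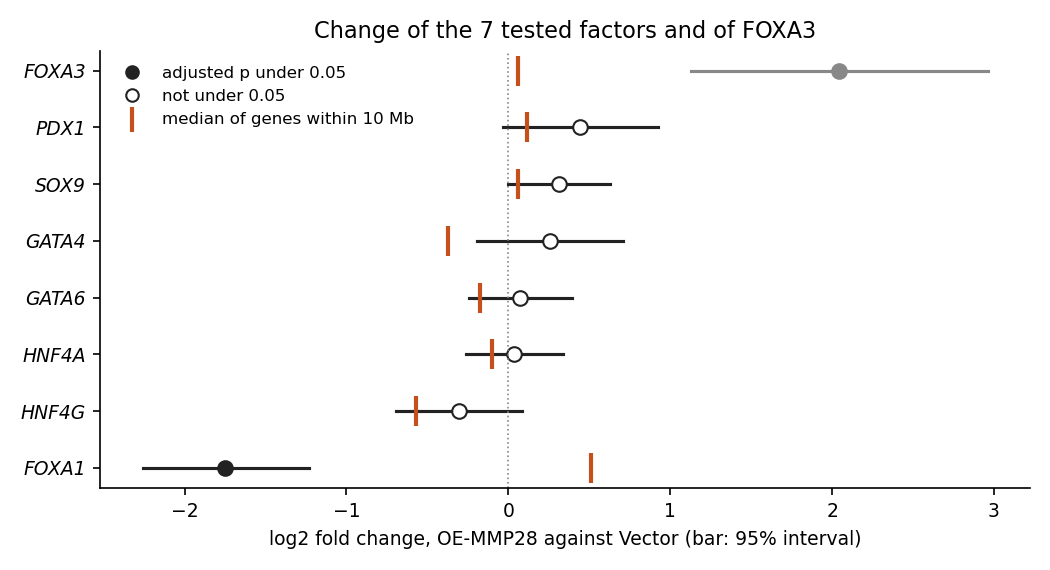
The log2 fold change of the 7 tested factors (black) and of FOXA3 (grey), with 95% intervals as bars. Filled circles mark an adjusted p under 0.05, and orange ticks the median log2 fold change of the genes tested within 10 Mb. The FOXA1 interval (-2.26 to -1.23) ends below the lowest bound of the other 6 factors (-0.70, HNF4G), and its tick lies at 0.51.

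The intervals limit what the calls can say. For GATA6 and HNF4A the 95% intervals lay between -0.26 and 0.40 on the log2 scale, whereas for PDX1 the interval reached 0.92. The interval of FOXA1 did not touch that of any of the other 6 tested factors.

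The direction of FOXA1 was opposite to that of most tested genes around it. Within 10 Mb on either side, 46 other genes were tested. Of these, 41 had a log2 fold change above 0, 21 were called higher (11.7% of all genes were) and 0 were called lower. Their median was 0.51, and FOXA1 lay 2.26 below it. No tested neighbour was as low as FOXA1. The lowest was MIPOL1, the nearest tested gene, which was not called (log2 fold change -0.60, adjusted p = 0.120), while MBIP on the same side (0.96, adjusted p = 5.91e-04) and SEC23A on the other (0.87, adjusted p = 4.15e-04) rose. MIPOL1, MBIP and SEC23A were picked after their values were seen. TTC6, which overlaps FOXA1, did not pass the filter on low counts and is not among the 46. It was lower too, with a log2 fold change of -5.17 in the fit without that filter.

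**Figure D3:**
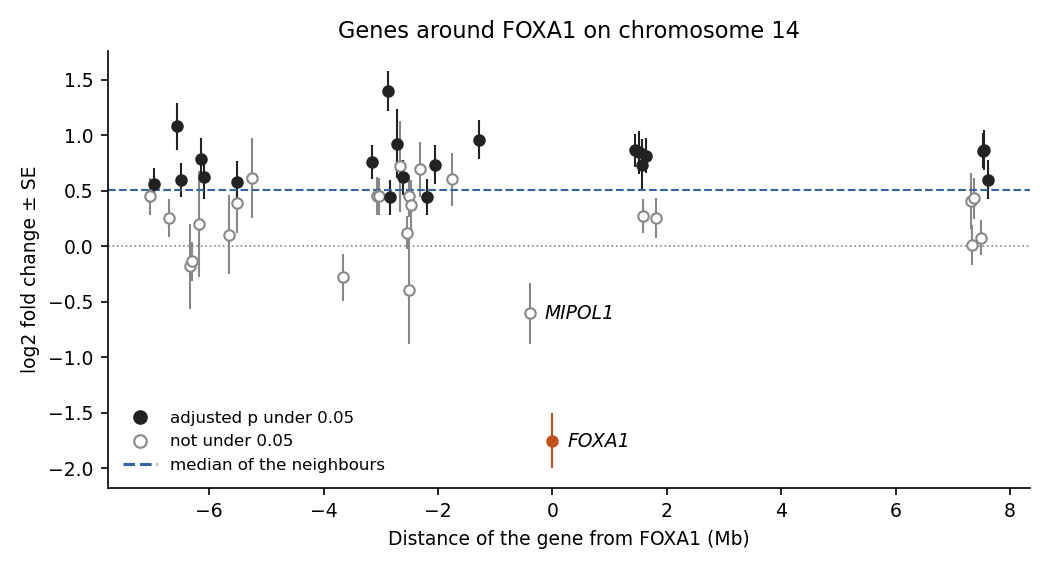
The log2 fold change ± SE of FOXA1 (orange) and the 46 tested genes within 10 Mb, against the distance of their gene starts from that of FOXA1 in Mb. Filled points have an adjusted p under 0.05, and the dashed line is the neighbours' median (0.51). FOXA1 lies at -1.75, below every other gene shown.

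TTC6 (ENSG00000139865), on the other side of the printed stretch, had 7, 22 and 15 counts in Vector and 0, 0 and 1 in OE-MMP28. Its ratio of OE-MMP28 to Vector was 0.0203 (44 counts against 1, 95% exact counting interval 0.000502 to 0.119, scaled to the library totals). This interval covers counting error only and leaves out the spread between libraries. TTC6 did not pass the filter on low counts. In the fit without that filter its adjusted p was 2.64e-06. The annotated genes overlap by 213 bases, of which 16 are exonic in both, 0.402% of the FOXA1 exon length, and the TTC6 counts came to 44 beside 668 for FOXA1 in Vector.

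Across the 6 libraries, the protein-coding genes averaging 1 FPKM or more whose log2 CPM followed FOXA1 most closely were CYP27C1, GLCE and BBIP1 (Pearson's r = 0.998, 0.996 and 0.993, over 10438 genes). CYP27C1 encodes a retinoid-oxidising cytochrome P450, GLCE an epimerase of heparan sulphate synthesis and BBIP1 a subunit of the BBSome. They fell by 1.96, 0.86 and 0.55 on the log2 scale (adjusted p = 1.07e-04, 9.12e-04 and 0.0337). The 6 points share their libraries and the group difference, and the 3 genes were picked for their r, so these values are a description.

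Other lineage factors changed in both directions. Of 44 such genes, 22 could be tested, and 5 rose and 5 fell (median log2 fold change -0.05). The share called was 45.5%, beside 23.4% of all genes. This list and those below were chosen with earlier results of these data known, so their shares are a description. Those that rose were led by FOXA3, ONECUT3 (a cut-homeodomain factor of liver and endocrine precursors), HES1 (a Notch target that restrains endocrine differentiation) and PROX1. ONECUT3 went from 3.44 ± 0.544 to 12.8 ± 1.94 FPKM and HES1 from 554, 773 and 447 counts to 1854, 1676 and 2573 counts (log2 fold change 1.91 and 1.62, adjusted p = 2.19e-07 and 1.41e-05). The genes within 10 Mb of HES1 had a median of 0.405, and relative to them its value was 1.21 (adjusted p = 4.01e-04). PROX1 had a log2 fold change of 1.14 (adjusted p = 0.0167), which lost its call without OE-MMP28 replicate 1 (0.86, adjusted p = 0.101).

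Those that fell included ONECUT2, the paralogue of ONECUT3, from 1.14 ± 0.0474 to 0.349 ± 0.0927 FPKM (log2 fold change -1.70, adjusted p = 9.55e-06). FOXQ1, a forkhead factor, went from 6.85 ± 2.11 to 2.18 ± 0.561 FPKM (-1.63, adjusted p = 1.10e-04). BHLHA15, the secretory cell factor known as MIST1, had 82 counts in Vector (46, 15 and 21) and 19 in OE-MMP28 (1, 9 and 9). Its log2 fold change was -2.21 (adjusted p = 0.00664), or -1.67 without Vector replicate 1 (adjusted p = 0.0448). Without OE-MMP28 replicate 1 it was -1.73 (adjusted p = 0.0347), and the call was lost in 2 of 18 other settings. CREB3L1 had a log2 fold change of -1.77 (adjusted p = 0.00358), but its Vector counts of 157, 939 and 346 overlapped with 141, 168 and 176 in OE-MMP28, and its call was lost with DESeq2 (adjusted p = 0.067). Without Vector replicate 2 its value was -0.745 (adjusted p = 0.0308). CDX2, a homeodomain factor of the gut, had a value of -0.33 (adjusted p = 0.215) and was not called.

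Of 14 regulators associated with the basal-like state, 11 were tested, 2 rose and 1 fell (median 0.06), or 27.3% beside 23.4% of all genes. HMGA2, an architectural chromatin protein of embryonic and aggressive tumour cells, rose from 16.7 ± 3.48 to 32.0 ± 4.58 FPKM (log2 fold change 0.95, adjusted p = 4.42e-04). ZBED2 had 0.55 (adjusted p = 0.0414), a call lost in 9 of 18 other settings. ZEB1, a repressor of epithelial genes, fell by 0.61 on the log2 scale (adjusted p = 0.00910), beside a median of -0.53 for genes within 10 Mb of it, and lost its call without OE-MMP28 replicate 2 (adjusted p = 0.083).

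Of 24 marker genes of the classical subtype, 18 were tested, 3 rose and 7 fell (median -0.53), or 55.6% beside 23.4% of all genes. The trefoil peptide gene TFF3 had 76, 213 and 126 counts in Vector and 2, 0 and 2 in OE-MMP28 (log2 fold change -6.74, adjusted p = 7.37e-08). AGR2, a disulphide isomerase of mucus cells, went from 20.7 ± 8.61 to 7.85 ± 1.87 FPKM, and TFF2 from 12.6 ± 5.05 to 5.75 ± 0.728 FPKM (-1.39 and -1.12, adjusted p = 2.75e-04 and 0.00438), the value of TFF2 being -0.745 without Vector replicate 2 (adjusted p = 0.0378). ANXA10 (-1.35), CEACAM6 (-0.73) and CYP3A7 (-1.59) fell as well, the last with a call lost on leaving out any of 4 single libraries (Vector replicate 2 or 3, OE-MMP28 replicate 1 or 2, adjusted p from 0.059 to 0.116). LGALS4, a galectin, rose from 128 ± 7.47 to 211 ± 23.3 FPKM (0.73, adjusted p = 0.00120), and the tetraspanin gene TSPAN8 from 415 ± 62.8 to 605 ± 16.5 FPKM (0.56, adjusted p = 0.00908).

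Of 25 basal-like markers, 13 were tested, 3 rose and 2 fell (median 0.18), or 38.5% beside 23.4% of all genes. TNS4, a tensin of focal adhesions, rose from 11.3 ± 3.32 to 74.8 ± 4.39 FPKM (log2 fold change 2.74, adjusted p = 6.87e-09) and S100A2, a calcium-binding protein, from 3.46 ± 0.147 to 7.04 ± 1.25 FPKM (1.04, adjusted p = 0.00201). SCEL, a precursor of the cornified envelope, fell from 7.08 ± 0.668 to 0.734 ± 0.117 FPKM (-3.25, adjusted p = 3.54e-09), and FAM83A had a log2 fold change of -0.98 (adjusted p = 0.00185). Vector replicate 1 held 4323 FAM83A counts beside 1967 and 2211 in the other Vector libraries, the value was -0.60 without it (adjusted p = 0.0108), and the call was lost in the 3 limma fits on FPKM (adjusted p from 0.0513 to 0.152). FGFBP1 had 0.77 (adjusted p = 0.0177), a call lost on leaving out any of 4 single libraries (Vector replicate 2 or 3, OE-MMP28 replicate 1 or 2, adjusted p from 0.059 to 0.086), and its value was 1.18 without Vector replicate 1.

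Of 25 genes of the gut brush border and liver, the tissues where HNF4 factors are known to act, 14 were tested, 4 rose and 2 fell (median 0.20). The share called was 42.9%, beside 23.4% of all genes. SERPINA1, which encodes alpha-1 antitrypsin, rose from 0.124 ± 0.0572 to 0.840 ± 0.0689 FPKM (log2 fold change 2.77, adjusted p = 2.94e-05), with a median of 0.55 around it. SLC5A1, the sodium-glucose transporter, rose by 1.94 and ANPEP, a brush border peptidase, by 0.58 (adjusted p = 0.00296 and 0.00862). The level of SLC5A1 was low, at 0.119 ± 0.0658 and 0.451 ± 0.113 FPKM (27 and 116 counts). ANPEP stood at 20.3 ± 2.54 and 30.0 ± 1.85 FPKM. The SLC5A1 call was lost in 1 of 16 other settings and the ANPEP call in 1 of 18. FABP2, a fatty acid binding protein, had 1.46 (adjusted p = 0.00866, or 0.060 without OE-MMP28 replicate 3). VIL1, the brush border actin bundler villin, fell by 0.74 (adjusted p = 0.00498), beside a median of -0.26 for the genes within 10 Mb of it. Its value was -0.48 relative to them, with the call lost (adjusted p = 0.0718), and -0.49 without Vector replicate 2. MYO7B fell by 0.89 (adjusted p = 0.00757), and lost its call without Vector replicate 2 (-0.50, adjusted p = 0.051), with DESeq2 (adjusted p = 0.0709) and relative to the genes within 10 Mb, whose median was -0.46 (-0.43, adjusted p = 0.214). HNF4A and HNF4G showed no call beside these.

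**Figure D4:**
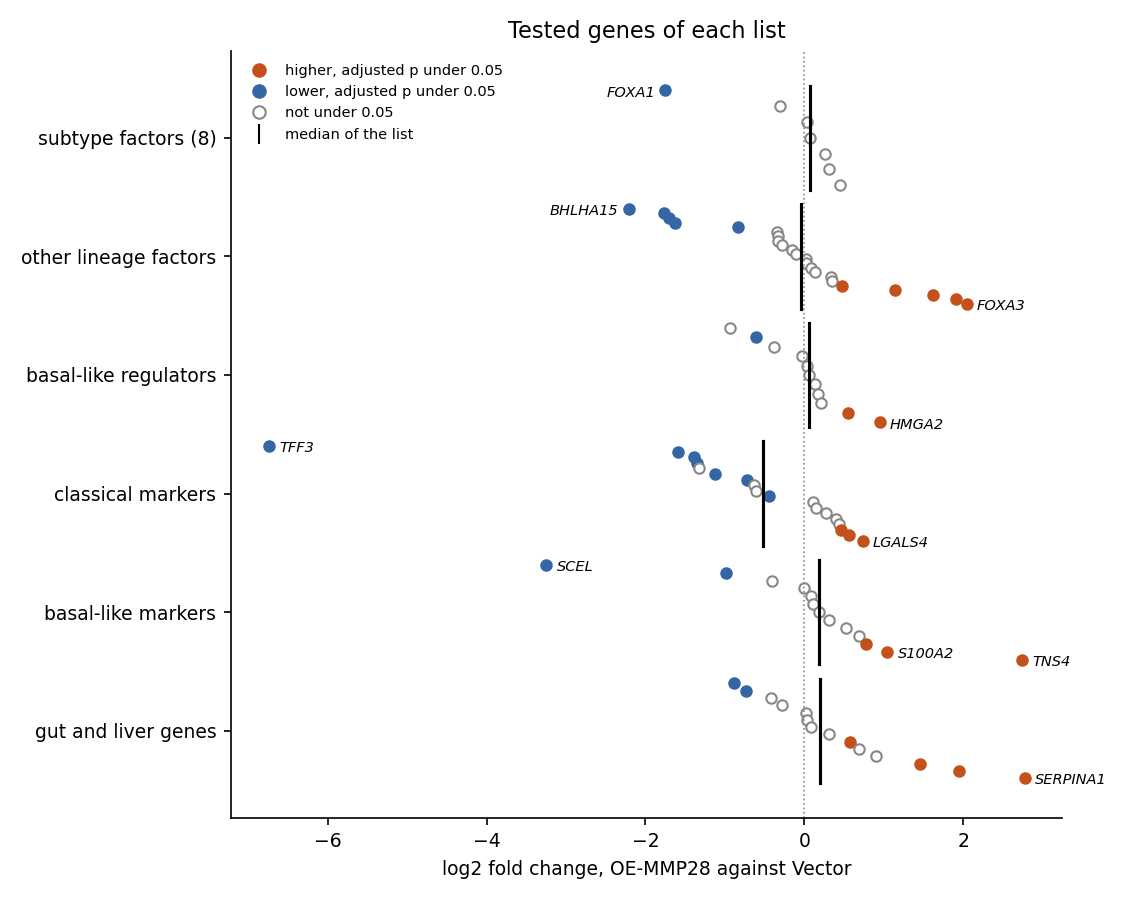
The log2 fold change of each tested gene, by list, with filled circles for an adjusted p under 0.05 and vertical bars for the median of each list. Of the lists, the classical markers have the lowest median (-0.53), and each list outside the 8 factors holds genes called in both directions.

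The noncoding genes beside the factors gave few counts. Of 8 names, 6 were found in the table and 2 were tested, neither of which was called: GATA6-AS1 (log2 fold change -0.31, adjusted p = 0.639) and SOX9-AS1 (-0.03, adjusted p = 0.971). HNF4A-AS1 had 3 and 6 counts over the groups and LINC01152 1 and 0. LINC00261, the noncoding neighbour of FOXA2, and HNF4GP1 had no count in any library.

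**Figure D5:**
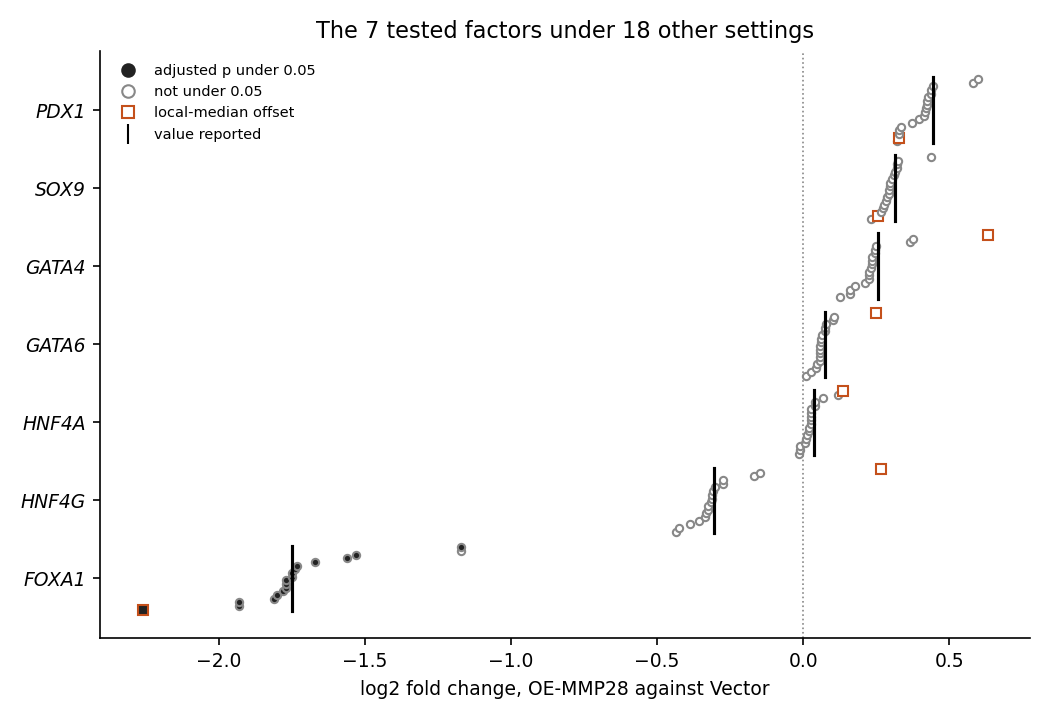
The log2 fold change of the 7 tested factors under 18 other settings of filter, scaling, test and left-out library, with filled symbols for an adjusted p under 0.05, squares for the values relative to the genes within 10 Mb, and bars for the values reported. FOXA1 lies between -2.26 and -1.17 throughout, and none of the other 6 is filled in any setting.

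Over these 18 settings, which the plot of settings shows, FOXA1 was called in 17, with adjusted p from 6.72e-12 to 0.0512. GATA4 came nearest to a call among the other 6 when its change was taken relative to its neighbourhood (0.63, adjusted p = 0.0534), where genes within 10 Mb had a median of -0.38.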

How the data were processed

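RNA-seq of 3 Vector and 3 OE-MMP28 AsPC-1 samples was analysed from 1 table. The authors deposited raw read counts per gene and FPKM values, and the submitters' processing notes name HISAT2 2.0.5 and featureCounts 1.5.0-p3. The genome build, the handling of reads with several matches and the use of strand in counting were not given in the sources used here, but coordinates and strands of all 58735 genes equalled GENCODE 29 (GRCh38). The totals implied by FPKM differed from summed counts by -2.01% to 2.02%. Columns with the authors' own fold changes and p-values were not used, and 0 per-sample columns were unmapped.

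Counts were tested with edgeR 4.0.16 (R 4.3.3): filterByExpr (minimum count 10, minimum total 15, leaving 15319 genes), TMM scaling, group as the only term, quasi-likelihood test, Benjamini-Hochberg adjustment over all genes tested. Scripts were tested on simulated data. SE is the log2 fold change divided by the root of F. The study's methods name limma, which was run as an alternative (3.58.1) with DESeq2 (1.42.0), since raw counts call for a count test. Single values were compared by exact permutation over libraries (Python 3.11.15). Replicate numbers were taken from the labels.

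The factors and the gene lists were chosen with earlier results of these data known. Named genes were the 8 factors, from each list up to 8 called genes with the largest change, the tested noncoding genes, the 3 genes most like a called factor (log2 CPM, prior count 2), genes overlapping a factor and MMP28. Any other gene named was chosen after its values were seen. Promoter sequence came from RefSeq (GRCh38.p14).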

Additional observations from a re-analysis of the deposited data

How the results depend on the processing

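FOXA1 kept its direction in 18 of 18 other settings and its call in 17. With limma on log2(FPKM + 1) without a filter, where 30568 genes were tested, it stood at -1.17 (adjusted p = 0.0512), which left 0 factors called lower. On leaving out a library it ranged from -1.93 to -1.53. HNF4A, without a call throughout, turned to -0.011 with upper-quartile scaling and ranged from -0.0138 to 0.119 on leaving out a library, below 0 without Vector replicate 1 and without OE-MMP28 replicate 2. HNF4G turned to 0.27 relative to the genes within 10 Mb (adjusted p = 0.370). The causes were not tested. Over all genes, 1795 were higher and 1784 lower. Genes higher numbered 1009 with limma on log2(FPKM + 1), 1000 with limma at a pseudocount of 0.1, 362 with limma on log2(FPKM + 1) without a filter and 1104 relative to the genes within 10 Mb, and genes lower 965, 970 and 308 in the first 3 of these. Leaving out a library gave 985 to 1916 higher and 1044 to 1949 lower. Lineage factors called numbered 5 with limma at the pseudocount of 0.1. With limma on log2(FPKM + 1) without a filter, 4 lineage factors, 0 basal-like regulators and 2 classical markers were called, and with edgeR without a filter 10, 3 and 13. Basal-like regulators called ranged from 1 to 4 on leaving out a library. In each of the 3 limma fits on FPKM, 3 basal-like markers and 1 gut or liver gene were called. Of 604 refits of 34 called list genes, 82 lost the call and 0 reversed, 24 of the 82 with limma on log2(FPKM + 1) without a filter. With the replicate number as a block, 1844 genes were higher and 1841 lower, and FOXA1 stood at -1.74 (adjusted p = 5.59e-09). Same-numbered libraries did not deviate together (r = 0.0168, 0.00798 and -0.0876), and 0 of 6 libraries correlated best with their own number, so the numbers were not taken as pairs. At the depth of these libraries FOXA2 and TTC6 stayed below the filter on low counts.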

Other observations

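By the transcription factor families that the table assigns, a view chosen after values were seen, forkhead genes moved both ways. Of 47 forkhead genes, 24 were tested, 2 rose (FOXA3 and FOXN3, the latter with a log2 fold change of 1.65 and adjusted p = 2.44e-05) and 5 fell (29.2% called, beside 23.4% of all genes). FOXA1 had the lowest value of the 24, followed by FOXQ1. FOXP2 (-1.04), FOXC1 (-0.86) and FOXN2 (-0.73) were the other genes that fell. Of 9 tested genes in the nuclear receptor family that the table names RXR-like, 0 rose and 1 fell. Of 10 tested GATA family genes, 1 rose and 1 fell, and GATA3 was at -0.94 with an adjusted p of 0.0537. Among all 1006 tested transcription factor genes, 85 rose and 124 fell, or 20.8%.

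The ductal marker MUC1, a membrane mucin, rose from 15.4 ± 3.70 to 68.0 ± 4.48 FPKM (SD, n = 3, log2 fold change 2.16, adjusted p = 3.60e-08) and KRT19, a duct keratin, from 624 ± 34.1 to 1012 ± 140 FPKM (0.71, adjusted p = 0.00175). CDH1, which encodes E-cadherin, fell from 20.3 ± 2.61 to 13.4 ± 2.15 FPKM (-0.59, adjusted p = 0.0113), beside a median of -0.37 for the genes within 10 Mb of it. KRT7, KRT8, KRT18 and EPCAM were not called, and CD24 did not pass the filter on low counts.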
